A study of Homo sapiens with 36 samples.

Results

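The genes described here carry glucose into the cell, split it to pyruvate and lactate, or pass it through the pentose phosphate pathway. They were found by their symbols, from a list of 36 drawn up with earlier results of these data known and with no threshold on a measured value, and 34 of the 36 had a row in all 3 deposited tables, which hold 60642, 57820 and 13707 genes. SLC16A3 and PGM1 had no row in the smallest table. RNA was measured in 36 libraries of 2 human leukemia lines, K562 (chronic myeloid leukemia with erythroid features) and HEL (erythroleukemia), to follow the loss of the partner proteins LMO2, LDB1 and TAL1. In K562, a parental line, a line named LMO2 control and degron lines 1 and 2 (labelled LMO2 degron rep 1 and rep 2) were each harvested before dTAGv1 (day 0) and after 1 and 4 days of it (labelled 750 uM), as bio reps 1 and 2. A degron is a tag that lets a small molecule such as dTAGv1 send the tagged protein to the proteasome. The parental and LMO2 control lines also received dTAGv1 on days 1 and 4, and together they are called the control lines. The sources used here do not say what the LMO2 control line carries or whether each degron line is 1 clone. HEL cells received a non-targeting siRNA pool, TAL1 siPool 1 or TAL1 siPool 2, with 3 libraries each. In a separate K562 set, 1 library came from a control shRNA and 1 from each of 2 LDB1 shRNAs.

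Glycolysis turns glucose into pyruvate in the cytosol and yields ATP, and red cells, which lose their mitochondria, depend on it. The pentose phosphate pathway branches off at glucose 6-phosphate, makes NADPH that protects against oxidation and supplies ribose for nucleotides. Several steps are served by related genes used in different tissues, among them pyruvate kinase, for which PKM serves most cells and PKLR serves red cells and liver.

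The K562 degron libraries held about 17200000 to 26100000 reads, as recovered from the steps of their low FPKM values, and the HEL libraries held 15869619 to 27029836 counts. For the LDB1 set, TPM keep no depth. LMO2 mRNA does not check the loss of the tagged protein: its FPKM was 31.2 to 46.6 in the parental libraries, 212 to 443 in the LMO2 control line and 128 to 271 in the degron lines. TAL1 mRNA fell by 1.38 ± 0.08 (log2 ± SE) with siPool 1 and by 1.31 ± 0.08 with siPool 2 (edgeR, Benjamini-Hochberg adjusted p = 5.41e-06 and 1.03e-05). LDB1 mRNA was at 468 TPM with the control shRNA and at 62.4 and 69.6 TPM with the LDB1 shRNAs. All 11 erythroid markers were detected in both lines, and all 7 megakaryocyte markers in HEL but only 2 of 7 reached 1 FPKM in K562. On day 4 the summed FPKM of the erythroid list was 756 to 1360 in the control lines and 324 to 401 in the degron lines, while a list of 12 monocyte and granulocyte genes summed to 7.59 to 17.8 and 105 to 133. That difference was carried by 4 of the 12, among them ITGAM and LYZ, and CD14, MPO, ELANE and FCN1 stayed under 1 FPKM in every library. The list was already apart on day 0, before dTAGv1, at 5.54 to 14.9 in the control lines and 28.3 to 38.9 in the degron lines. In bulk RNA, fewer cells of a type and less RNA per cell cannot be told apart, and the part of these marker shifts in the results below was not tested.

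On day 4, 14 members fell in the degron lines, among them hexokinase, enolase and lactate dehydrogenase genes, and PFKM rose. The degron-specific change is the mean log2 change from day 0 in the degron lines minus that in the control lines, on the scale log2(FPKM + 1), which understates the change of low genes. These are 14 and 1 of the 35 members that passed the filter on low values (limma, Benjamini-Hochberg adjusted p under 0.05), where 8.18% of all 15348 tested genes fell and 11.6% rose. The other 20 were not called. The median change of the members was -0.70, and that of all tested genes was 0.06. In 32 of the 35 the estimate was below 0, and the exceptions were PFKM, PGLS and BPGM. With the bio rep number as a block, which the samples support, 26 members were lower and 2 higher, beside 15.6% and 20.1% of all genes. PGM1, the phosphoglucomutase that links glycogen to glycolysis, failed the filter with at most 0.186 FPKM in any library.

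**Figure D1:**
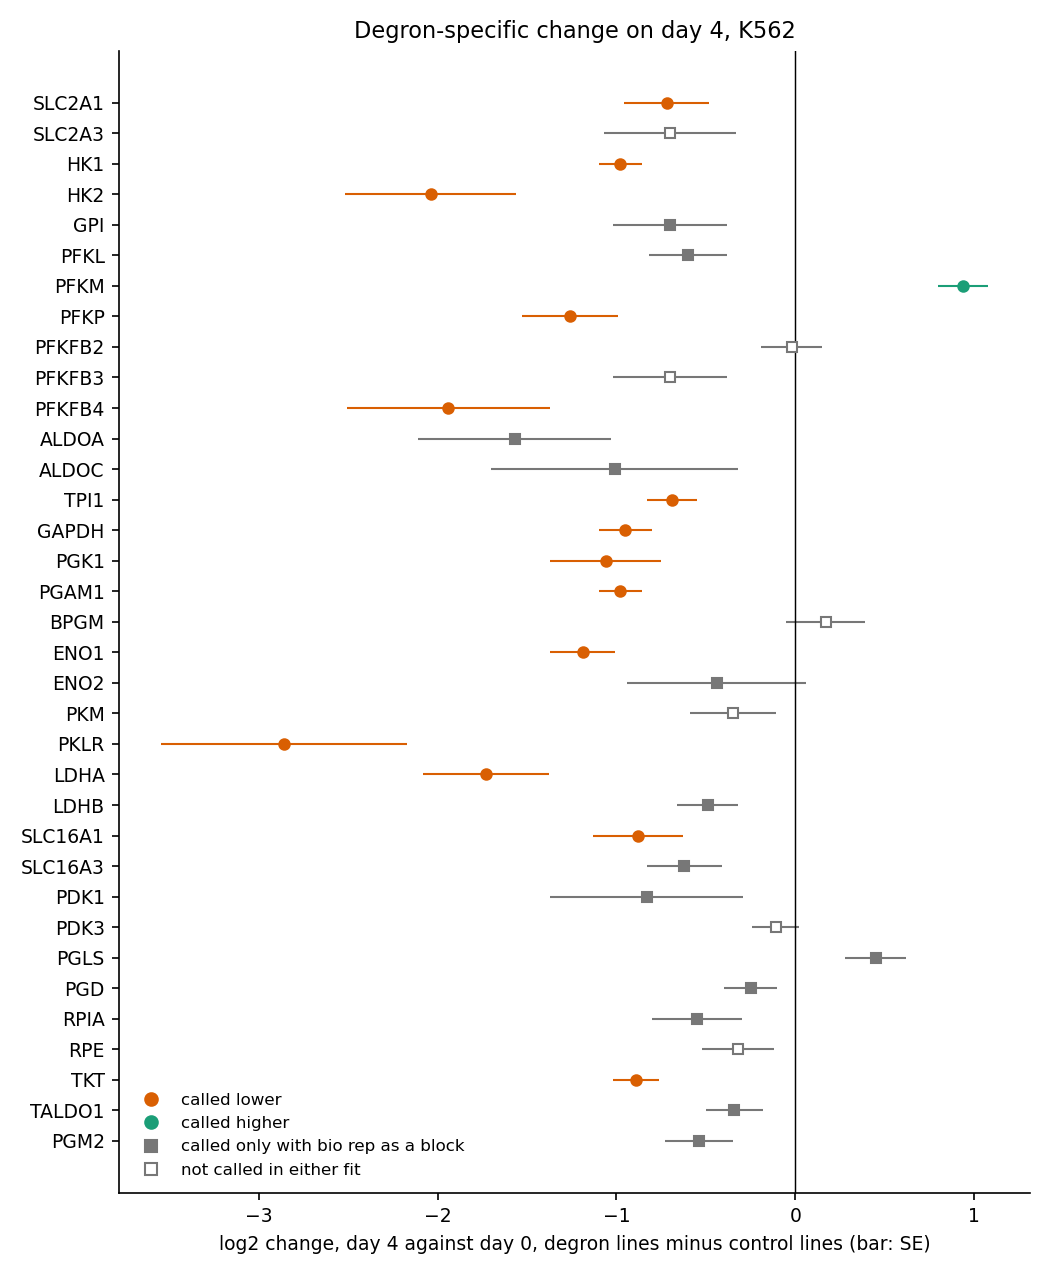
Degron-specific log2 change on day 4 of the 35 tested members in K562, in pathway order from glucose carriers at the top to phosphoglucomutase at the bottom, with bars for the SE. Orange and green circles are called lower and higher, filled squares are called only with bio rep as a block, and open squares in neither fit. PKLR lies farthest to the left at -2.86 and PFKM farthest to the right at 0.94.

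The share of all FPKM that the members held shows the same day. It was 0.806% and 0.841% in bio rep 1 and 0.632% and 0.654% in bio rep 2 of degron lines 1 and 2 on day 4, and 1.05% to 1.34% in the other 20 K562 degron-set libraries. The 4 day 4 degron libraries were thus below all others, with bio rep 2 lowest. Per gene, all 4 degron libraries lay below all 4 control-line libraries on day 4 for 22 of the 35 tested members and above them for 3 (PKM, PFKM and PGLS), against 20.2% and 28.2% of all tested genes. On day 1 the ranges were apart in either direction for 12 members, against 29.4% of all genes, and on day 0 for 2 below and 7 above, against 5.94% and 11.4%.

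Glucose carriers come first. SLC2A1, the main carrier of glucose into red cells and many cell lines, was at 75.6 and 64.1 FPKM (bio reps 1 and 2) in parental cells on day 4, 86.6 and 81.7 in the LMO2 control line, 44.9 and 43.0 in degron line 1 and 45.0 and 45.8 in line 2. The groups did not overlap. Its degron-specific change was -0.72 ± 0.24 (adjusted p = 0.0469), close to the threshold: the call held in only 2 of 16 fits that left out 1 library (parental day 0 bio rep 1, or degron line 1 day 0 bio rep 2), and adjusted p ran from 0.0015 to 0.177 over all 26 alternatives. SLC2A3, a high-affinity carrier, differed already before treatment, with 50.7 to 87.2 FPKM in the degron lines and 24.5 to 39.5 in the control lines on day 0 (0.96 ± 0.26, adjusted p = 0.021). On day 4 SLC2A3 ranges overlapped, and its degron-specific change was -0.70 ± 0.37 (adjusted p = 0.207). As a share of the pair's FPKM, SLC2A1 made up 50.6% to 62.5% in control lines and 30.5% to 49.9% in degron lines on day 4.

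Both hexokinase genes, whose products phosphorylate glucose on entry, fell. HK1, the form kept in most tissues, was at 106 to 127 FPKM in the 4 control-line libraries on day 4 and at 43.1 to 57.8 in the 4 degron libraries, a change of -0.98 ± 0.12 (adjusted p = 9.69e-05). Before dTAGv1, HK1 was already a little lower in degron lines (86.0 to 93.5 against 103 to 114 FPKM, -0.29 ± 0.09, adjusted p = 0.0284), a call that held in 1 of 8 fits with 1 library left out. HK2, the inducible form common in tumor cells, was at 41.2 and 35.3 FPKM in parental cells on day 4, 37.0 and 28.4 in the LMO2 control line, 14.7 and 3.97 in degron line 1 and 8.71 and 2.54 in line 2. The 4 degron values were below all control values, and bio rep 1 stood above bio rep 2 in both degron lines. The change of HK2 was -2.04 ± 0.48 (adjusted p = 0.00762), and within bio reps 1 and 2 it was -1.67 and -2.42.

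The phosphofructokinase genes moved apart. PFKP, the platelet form, was at 30.3 to 34.3 FPKM in control lines and at 11.9 to 25.2 in degron lines on day 4, and fell by 1.26 ± 0.27 (adjusted p = 0.00506). On day 0 PFKP had stood higher in the degron lines, at 35.56 to 43.25 against 28.19 to 33.42 FPKM, though not called without the block. PFKM, the muscle form that red cells also use, was at 6.04 and 6.80 FPKM in parental cells, 6.22 and 6.09 in the LMO2 control line, 13.4 and 11.6 in degron line 1 and 15.2 and 14.5 in line 2. Every degron value was above every control value, and PFKM was the member that rose, by 0.94 ± 0.14 (adjusted p = 0.000278). PFKL, the liver form with the highest FPKM of the 3 in degron lines, was at 23.9 to 38.5 FPKM in degron lines and 31.8 to 41.3 in control lines, and its change of -0.60 ± 0.22 was called with the block only (adjusted p = 0.0699 without and 0.00112 with it). By FPKM, PFKM made up 7.61% to 9.64% of the 3 genes in control lines and 17.9% to 28.5% in degron lines on day 4, and PFKP 41.7% to 45.2% and 22.9% to 33.4%. The exons of PFKM share 8.58% of their bases with SENP1 on the other strand, whose own change was -0.09 ± 0.12 (adjusted p = 0.648).

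The PFKFB genes encode the enzymes that set the level of fructose 2,6-bisphosphate, the activator of phosphofructokinase. PFKFB4, the highest of the 3 by FPKM in control lines, was at 14 to 25.3 FPKM in control lines and at 1.91 to 10.2 in degron lines on day 4, and fell by 1.94 ± 0.57 (adjusted p = 0.027). That call was lost in 8 of 16 fits with 1 library left out (each of parental and LMO2 control day 0 bio rep 2 and day 4 bio rep 1, and of both degron lines' day 0 bio rep 1 and day 4 bio rep 2), with changes of -2.28 to -1.60 and adjusted p of 0.0142 to 0.0721. It was also lost in 5 of 10 other settings (no low-value filter, either control line alone, either degron line alone), with adjusted p up to 0.156. PFKFB2 (-0.02 ± 0.17, adjusted p = 0.957) and PFKFB3 (-0.70 ± 0.32, adjusted p = 0.143) were not called.

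The aldolases split fructose 1,6-bisphosphate into 2 three-carbon sugars. ALDOC was at 33.8 to 92.1 FPKM in control lines and 14.8 to 30.9 in degron lines on day 4, and ALDOA was at 31.3 to 40.6 and 10.2 to 16.8. Neither was called without the block (-1.01 ± 0.69, adjusted p = 0.34, and -1.57 ± 0.54, adjusted p = 0.0513), and both were with it (adjusted p = 0.00364 and 0.000124). GPI, the isomerase that makes fructose 6-phosphate, changed by -0.70 ± 0.32 (adjusted p = 0.15 without and 0.00664 with the block). The level of ALDOA in this table is doubtful. With FPKM rescaled to the total that TPM have, ALDOA stood at 131 in parental day 0 cells, against 1205 TPM in the K562 control shRNA library, a ratio of 9.17, where the ratio over 10594 genes had a median of 1.12 and 5th and 95th percentiles of 0.554 and 4.73. In GENCODE v29, 42.3% of the exon bases of ALDOA are shared with another gene on the same strand, and the sources used here do not say how the authors' counting treated such reads. LDHB showed the same more strongly, at 22.1 rescaled FPKM and 750 TPM, a ratio of 33.9 and 33.4% of exon bases shared. The levels of these genes, and their shares among aldolases and lactate dehydrogenases, are therefore uncertain. Below the 5th percentile of the ratio lay LDHA (0.378), PKM (0.437), RPE (0.498) and HK2 (0.512), so shares that rest on them are uncertain too.

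The steps from triose phosphate to pyruvate hold the most abundant members, and most of them fell. GAPDH, which makes the first NADH of the pathway, had the highest FPKM of all members, at 645 and 740 in parental cells on day 4, 730 and 825 in the LMO2 control line, 533 and 452 in degron line 1 and 540 and 429 in degron line 2. The groups did not overlap, and GAPDH fell by 0.95 ± 0.15 (adjusted p = 0.000601). On day 0 GAPDH had been higher in the degron lines, at 858 to 1062 against 618 to 804 FPKM (0.36 ± 0.11, adjusted p = 0.0319). ENO1, the main enolase, was at 528 and 637 FPKM in parental cells on day 4, 477 and 582 in the LMO2 control line, 296 and 275 in degron line 1 and 253 and 229 in degron line 2, and fell by 1.19 ± 0.18 (adjusted p = 0.000362). All ENO1 degron values on day 4 were below the control lines, while on day 0 the ranges overlapped. TPI1, which interconverts the trioses, fell by 0.69 ± 0.14 (adjusted p = 0.00348), with 222 to 244 FPKM in control lines and 149 to 200 in degron lines on day 4. On day 0 TPI1 had stood higher in the degron lines, at 259 to 287 against 198 to 258 FPKM, though not called without the block. PGAM1, the phosphoglycerate mutase, fell by 0.98 ± 0.12 (adjusted p = 7.58e-05). PGK1, which makes the first ATP of the pathway, fell by 1.06 ± 0.31 (adjusted p = 0.0257), with 140 to 183 FPKM in control lines and 70.7 to 124 in degron lines. The PGK1 call was lost without parental or LMO2 control day 4 bio rep 1, or without either degron line's day 0 bio rep 1 or day 4 bio rep 2 (6 of 16 fits, adjusted p up to 0.0673), and in 4 of 10 other settings (no low-value filter, LMO2 control as only control, either degron line alone), with adjusted p up to 0.168. ENO2, the neuronal enolase, had stood above control before dTAGv1 (1.15 ± 0.36, adjusted p = 0.038), and its day 4 change was -0.44 ± 0.50 (adjusted p = 0.592 without and 0.0411 with the block). BPGM, which makes the 2,3-bisphosphoglycerate that lowers the oxygen affinity of hemoglobin, was at 13.3 and 11.1 FPKM in parental cells on day 0, 23.1 and 14.5 in the LMO2 control line, 12.1 and 12.3 in degron line 1 and 6.49 and 8.31 in line 2. The ranges overlapped and parental cells were near degron line 1, and the mean difference of BPGM was -0.61 ± 0.16 (adjusted p = 0.0157), a call that held in 4 of 8 fits with 1 library left out. It had a day 4 change of 0.17 ± 0.22 (adjusted p = 0.649).

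**Figure D2:**
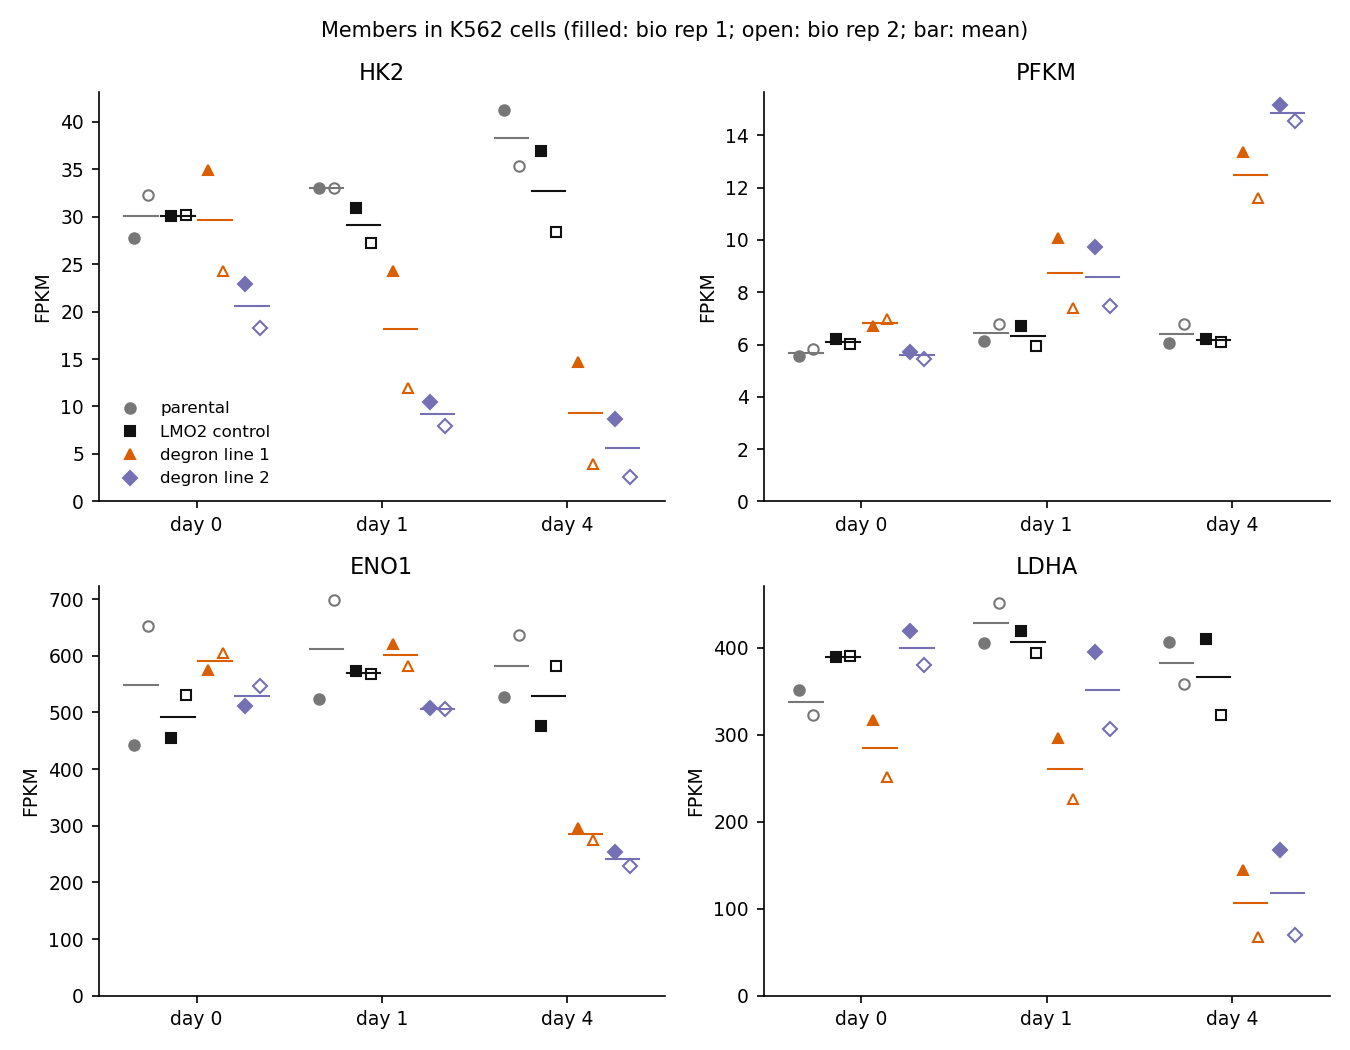
FPKM of HK2, PFKM, ENO1 and LDHA in each K562 degron-set library by day, with a bar at the mean of the 2 bio reps of each line. On day 4 the degron libraries lie below all control-line libraries for HK2, ENO1 and LDHA, and above them for PFKM at 11.6 to 15.2 FPKM.

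The pyruvate kinase genes differed most. PKLR, the red cell and liver form, was at 97.5 and 37.7 FPKM in parental cells on day 0, 105 and 62.9 in the LMO2 control line, 53.9 and 28.4 in degron line 1 and 22.8 and 9.15 in degron line 2. On day 4 it was at 83.8 and 26.5 in parental cells, 84.1 and 37.7 in the LMO2 control line, 2.04 and 3.26 in degron line 1 and 0.940 and 0.662 in degron line 2. The day 4 groups stood far apart, and in all 3 days the control lines had more PKLR in bio rep 1 than in bio rep 2. PKLR fell by 2.86 ± 0.69 (adjusted p = 0.00891), on top of a lower level on day 0 (-1.51 ± 0.49, adjusted p = 0.0445, held in 2 of 8 fits with 1 library left out). Its day 4 call held in all 26 alternatives, with changes of -4.37 (day 4 lines compared without day 0) to -2.46 and adjusted p of 2.66e-06 to 0.0468. On day 1 the degron lines were at 3.25 to 24.1 FPKM and the control lines at 34.4 to 119, which do not overlap, while the change from day 0 was -1.30 ± 0.69 and not called (adjusted p = 0.8). On day 0 the ranges of PKLR did overlap. PKM, the form of most other cells, had its difference on day 0, at 217 to 270 FPKM in the degron lines and 86.0 to 147 in the control lines (1.00 ± 0.17, adjusted p = 0.000827). On day 4 PKM was at 231 and 169 FPKM in degron line 1, 264 and 202 in degron line 2 and 121 to 152 in the control lines, and its degron-specific change was -0.35 ± 0.24 (adjusted p = 0.333). Of the FPKM of both genes, PKLR made up 16.5% to 40.9% in control lines and 0.327% to 1.90% in degron lines on day 4, with 22.3% to 53.1% and 3.28% to 19.3% on day 0. These shares also rest on the level of PKM, whose TPM was low for its FPKM. In the K562 control shRNA library PKLR made up 64.2% of the TPM of both genes. Of the 11 erythroid genes, 4 were called lower and 1 higher on day 4, against 8.18% and 11.6% of all genes. With the block 9 were lower and 1 higher, against 15.6% and 20.1%. The liver markers ALB, APOA1, TTR and SERPINA1 summed to at most 1.97 FPKM. The exons of PKLR share 17.6% of their bases with HCN3 on the other strand, and HCN3 was at 2.75 to 8.52 FPKM over the 24 libraries, with a day 4 change of -0.46 ± 0.20 (adjusted p = 0.122).

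**Figure D3:**
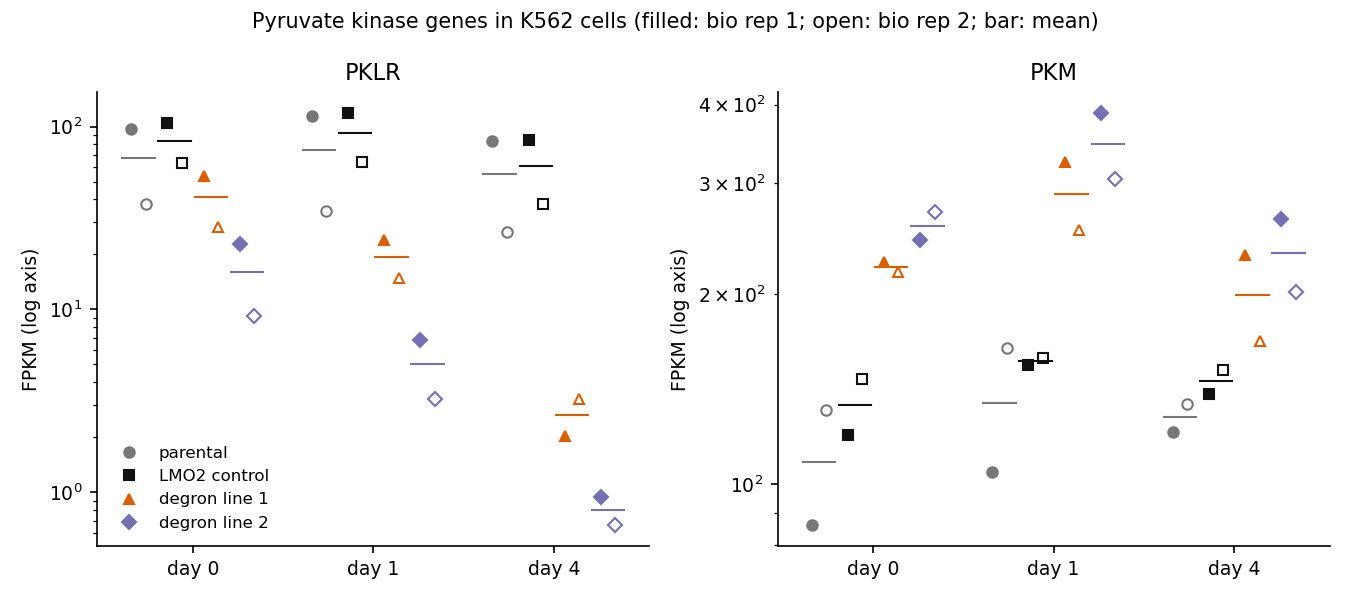
FPKM of PKLR and PKM on log axes in each K562 degron-set library by day, with a bar at the mean of the 2 bio reps of each line. PKLR in degron lines goes down to 0.662 to 3.26 FPKM on day 4, and PKM stands higher in degron lines than in control lines on all 3 days.

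Among the lactate genes LDHA and SLC16A1 fell. LDHA, which turns pyruvate to lactate, was at 407 and 358 FPKM in parental cells on day 4, 410 and 323 in the LMO2 control line, 144 and 68.0 in degron line 1 and 167 and 69.6 in degron line 2. All degron values were below all control values and bio rep 1 was above bio rep 2 in both degron lines. LDHA fell by 1.73 ± 0.35 (adjusted p = 0.00287). Within bio reps 1 and 2 its change was -1.37 and -2.09. SLC16A1, a carrier that moves lactate and pyruvate across the membrane, fell by 0.88 ± 0.25 (adjusted p = 0.0223), with 31.1 to 43.5 FPKM in control lines and 14.7 to 20.9 in degron lines. The SLC16A1 call was lost in 5 of 16 fits with 1 library left out (LMO2 control day 0 bio rep 1, degron line 1 day 0 bio rep 2, degron line 2 day 4 bio rep 2, parental day 0 bio rep 1 and parental day 4 bio rep 2), with adjusted p of at most 0.0584, and in the same 5 of 10 other settings as that of PFKFB4, with adjusted p up to 0.0969. SLC16A3, the lactate exporter of glycolytic cells, was low throughout, at 0.980 to 1.89 FPKM in degron lines and 0.817 to 1.22 in control lines on day 4. Before dTAGv1 its level was higher in degron lines (0.87 ± 0.15, adjusted p = 0.000867), and its day 4 change was -0.62 ± 0.21 (adjusted p = 0.0525 without and 0.00759 with the block). LDHB, whose level is uncertain as said, changed by -0.49 ± 0.17 (adjusted p = 0.0594 without and 0.00176 with the block). PDK1, one of the kinases that shut pyruvate dehydrogenase, was at 1.14 to 3.52 FPKM in degron lines and 2.59 to 6.49 in control lines on day 4 and was called lower with the block only (-0.83 ± 0.54, adjusted p = 0.307 and 0.00189). PDK3 was under 2 FPKM in every library and was not called on day 4.

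In the pentose phosphate pathway the picture was mixed. TKT, transketolase of the non-oxidative branch, was at 46.0 to 49.9 FPKM in control lines and 20.5 to 23.9 in degron lines on day 4, with no overlap, and fell by 0.89 ± 0.13 (adjusted p = 0.000235). TALDO1, its partner enzyme, had the highest FPKM of the pathway's members in control lines on day 4. It was at 163 to 191 and 98.3 to 176, and its change of -0.34 ± 0.16 was called with the block only (adjusted p = 0.151 and 0.0463). PGD, which makes the second NADPH, was at 110 to 151 FPKM in control lines and 111 to 139 in degron lines (-0.25 ± 0.15, adjusted p = 0.272 without and 0.0339 with the block). PGLS, the lactonase before it, was at 9.43 to 11.7 and 16.7 to 24.7 FPKM on day 4, without overlap, and had a change of 0.45 ± 0.17 (adjusted p = 0.0769 without and 0.0365 with the block). PGLS already stood higher before dTAGv1 (0.41 ± 0.12, adjusted p = 0.0307). RPIA, the ribose phosphate isomerase, changed by -0.55 ± 0.25 (adjusted p = 0.131 without and 0.00888 with the block), and RPE, the epimerase, by -0.32 ± 0.20 (adjusted p = 0.282 and 0.128). PGM2, which serves ribose and glucose phosphates, was at 11.3 to 13.2 FPKM in degron lines against 19.0 to 20.01 in control lines (-0.54 ± 0.19, adjusted p = 0.0526 without and 0.00516 with the block).

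Earlier and later differences among the K562 lines frame these values. On day 1 no member was called (limma), and 0.0782% of all genes were called. An unadjusted p under 0.05 was found for 4 of 35 members and for 1069 of all 15348 genes. The median member change on day 1 was -0.18, against 0.03 for all genes. With the block, SLC2A1 (-0.80 ± 0.18, adjusted p = 0.049) and HK1 (-0.39 ± 0.09, adjusted p = 0.0485) were lower on day 1, where 0.625% of all genes were. On day 0, before dTAGv1, 6 members were higher in the degron lines (SLC2A3, GAPDH, ENO2, PKM, SLC16A3, PGLS) and 4 lower (HK1, BPGM, PKLR, PDK3), against 10.6% and 6.14% of all genes. With the block these counts were 9 and 6, against 17.9% and 12.9%. The call of PDK3 came from the LMO2 control line, at 1.77 and 1.54 FPKM on day 0, while parental cells were at 0.106 and 0.0715, degron line 1 at 0.224 and 0.107 and line 2 at 0.482 and 0.345. With 1 library left out, the calls of PKM, SLC16A3 and PDK3 held in 8 of 8 fits, and those of SLC2A3 in 4, ENO2 and PGLS in 3, GAPDH in 2, HK1 in 1, BPGM in 4 and PKLR in 2. The counts went down to 2 or 3 higher and 1 or 2 lower without LMO2 control day 0 bio rep 1 or 2 or without either degron line's day 0 bio rep 1, and to 2 lower without degron line 2 day 0 bio rep 2. In the control lines no member was called between day 0 and day 4 (limma, 0.00% of all genes called). There 1 member and 509 of all 15348 genes had an unadjusted p under 0.05. The estimate of SLC2A3 there was 0.73 ± 0.26 (adjusted p = 1), with a median of 34.0 FPKM on day 0 and 53.2 on day 4, beside 61.8 and 65.2 in the degron lines. Between degron lines 1 and 2 no member's change to day 4 was called as different (limma, 0.0130% of all genes called). For that difference 1 member and 471 of all 15348 genes had an unadjusted p under 0.05. Among the 15 members called on day 4, all 15 had the same sign within each bio rep, and 11 kept their call in all 26 alternatives.

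In HEL cells, where TAL1 was lowered, few members were called in the fit without the replicate block, which is used below. With the block, 2 members were higher and 4 lower with siPool 1, and 1 higher and 7 lower with siPool 2. The share of all genes called with the block in HEL is not given here. These counts therefore say nothing about the members in particular. CPM below are counts scaled by library size with TMM factors and are not per length. With siPool 1, 1 of 36 members was lower and 0 higher (edgeR quasi-likelihood test, DESeq2 also gave 0 higher), against 1.65% and 2.56% of all 16688 genes. An unadjusted p under 0.05 was found for 4 members and 2975 of all genes. With siPool 2, 3 were lower and 0 higher (DESeq2 also gave 0 higher), against 0.563% and 0.491%. Here 8 members and 1964 of all genes had an unadjusted p under 0.05. The median change of the members was -0.08 and -0.06, and of all genes -0.02 and -0.01. PKLR was the member lower with both pools, as 0.210% of all genes were. It was at 4.35, 5.11 and 3.95 CPM with the non-targeting pool, 1.57, 2.19 and 1.71 with siPool 1 and 0.646, 0.714 and 1.63 with siPool 2. No TAL1 siRNA library reached the lowest non-targeting library. The change of PKLR was -1.30 ± 0.31 with siPool 1 (adjusted p = 0.0349) and -2.20 ± 0.34 with siPool 2 (adjusted p = 0.00872). These rest on few reads, 93 to 121 in the non-targeting libraries, 35 to 49 with siPool 1 and 14 to 27 with siPool 2. The siPool 1 call was lost when any 1 of its 6 libraries was left out (-1.45 to -1.19, adjusted p of 0.0624 to 0.137), and the siPool 2 call without siPool 2 bio rep 2 (adjusted p of 0.005 to 0.0737 over the 6 such fits). HCN3, on the other strand, had 7 to 23 reads over the 9 libraries and was not called with either pool (adjusted p = 0.958 and 0.922). Of the 11 erythroid markers 7 were lower with siPool 1 and 6 with siPool 2, and KLF1, an erythroid transcription factor, changed by -0.47 ± 0.12 (adjusted p = 0.0434) and -0.58 ± 0.12 (adjusted p = 0.036).

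PFKM and SLC2A1 also fell with siPool 2. PFKM was at 90.8, 109 and 104 CPM with the non-targeting pool, 89.8, 98.6 and 87.1 with siPool 1 and 61.8, 61.7 and 61.8 with siPool 2. The siPool 2 libraries stood below the other 6, with a change of -0.72 ± 0.09 (adjusted p = 0.00296), opposite in sign to the rise of PFKM in K562 on day 4. With siPool 1 the change of PFKM was -0.15 and was not called. SLC2A1 was at 212, 242 and 234 CPM with the non-targeting pool, 220, 216 and 193 with siPool 1 and 161, 174 and 172 with siPool 2, a change of -0.44 ± 0.09 (adjusted p = 0.0272). The SLC2A1 call was lost without non-targeting bio rep 2 or 3 or siPool 2 bio rep 2 or 3, with adjusted p of 0.0226 to 0.15 over the 6 fits. Between the pools, PFKM (-0.57 ± 0.09, adjusted p = 0.00684) and LDHA (-0.72 ± 0.17, adjusted p = 0.0459) were lower with siPool 2, and no member was higher (DESeq2 also gave 0 higher). Of all genes 1.68% were lower and 1.08% higher. An unadjusted p under 0.05 was found for 7 members and 2612 of all 16688 genes. LDHA was at 1130, 960 and 1014 CPM with the non-targeting pool, 1156, 1019 and 783 with siPool 1 and 756, 573 and 468 with siPool 2, and against the non-targeting pool siPool 2 gave -0.79 ± 0.17 (adjusted p = 0.052). Apart from PKLR, PFKM and SLC2A1, the members called in K562 on day 4, GAPDH, ENO1 and TKT among them, were called with neither pool in this fit. The monocyte and granulocyte list summed to 34.9 to 37.9 CPM with the non-targeting pool, 58 to 65.3 with siPool 1 and 36.1 to 39.2 with siPool 2, and its part was not tested.

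**Figure D4:**
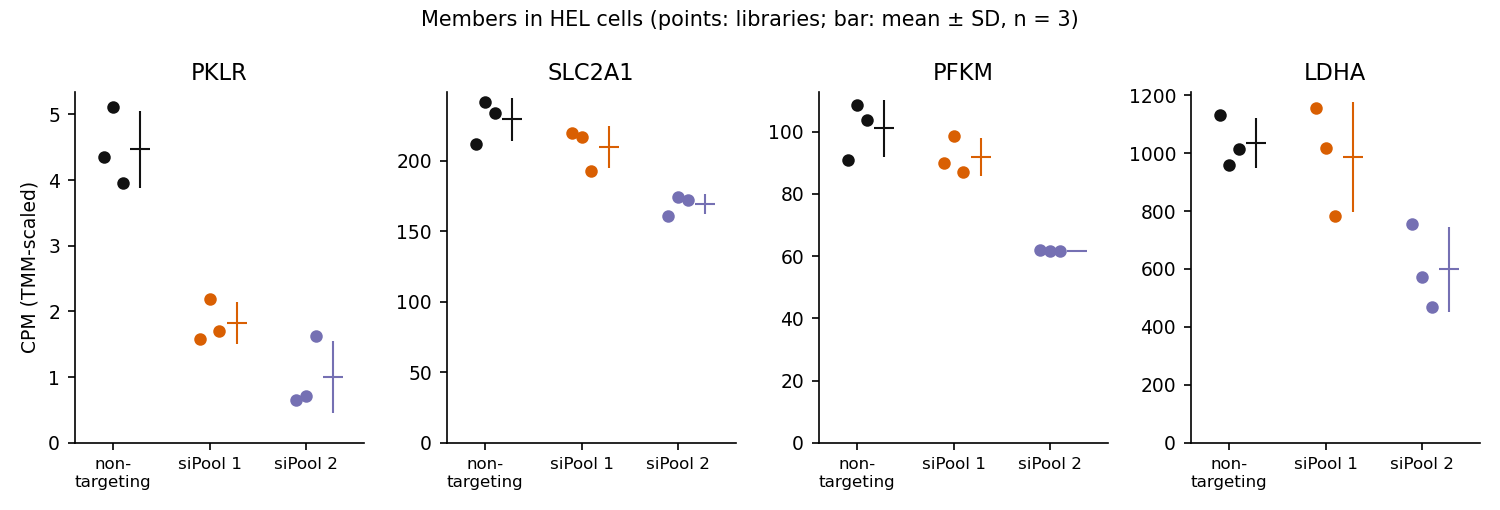
TMM-scaled CPM of PKLR, SLC2A1, PFKM and LDHA in the 9 HEL libraries, with mean and SD (n = 3) beside the points. PKLR is lower with both pools, and PFKM is lower with siPool 2 at 61.7 to 61.8 CPM.

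With LDB1 shRNA there is 1 library per group, so ratios have no replicate check and no test. A member was counted when log2 of the ratio of (TPM + 1) reached 1 in size with the same sign in both shRNA libraries, among the 33 members with at least 5 TPM in 1 library. By that rule 1 member was higher (PKM) and 2 were lower (PKLR and RPIA), against 8.94% and 2.21% of 12445 genes. PKM was at 155 TPM with the control shRNA and at 432 and 517 with LDB1 shRNAs 1 and 2. PKLR was at 277 TPM and at 55.7 and 83.5. PKLR was thus above PKM in the control library and below it in both shRNA libraries. RPIA was at 94.7 TPM and at 40.4 and 39.5. In the K562 degron set RPIA, not called without the block, was at 28.2 to 36.1 FPKM in control lines and 13.7 to 16.4 in degron lines on day 4. Before dTAGv1, on day 0, RPIA was at 26.9 to 43.1 FPKM in control lines and 17.2 to 31.0 in degron lines, which overlap. With both shRNAs 23 of the 33 members (69.7%) were above 0 and 9 (27.3%) below 0, beside 53.5% and 34.5% of all 12445 genes. The medians of the members were 0.13 with shRNA 1 and 0.38 with shRNA 2, against 0.18 and 0.13 over all genes. Of members that fell in the degron lines, HK1 was at 327, 207 and 242 TPM, GAPDH at 2253, 1904 and 2350 TPM, ENO1 at 1234, 1349 and 1876 and LDHA at 417, 421 and 565 for the control, shRNA 1 and shRNA 2. HK2 was at 50.3, 66.2 and 146 TPM and SLC2A1 at 290, 94.3 and 162. PGK1 was higher with both shRNAs, at 391, 786 and 706 TPM, and TKT lower, at 131, 106 and 129. PFKP, PFKFB4, TPI1, PGAM1 and SLC16A1, which also fell in the degron lines, were above the control with both shRNAs. By the same rule 5 of the 11 erythroid markers were lower, and the monocyte and granulocyte genes in the table summed to 52.5, 155 and 134 TPM; their part was not tested.

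**Figure D5:**
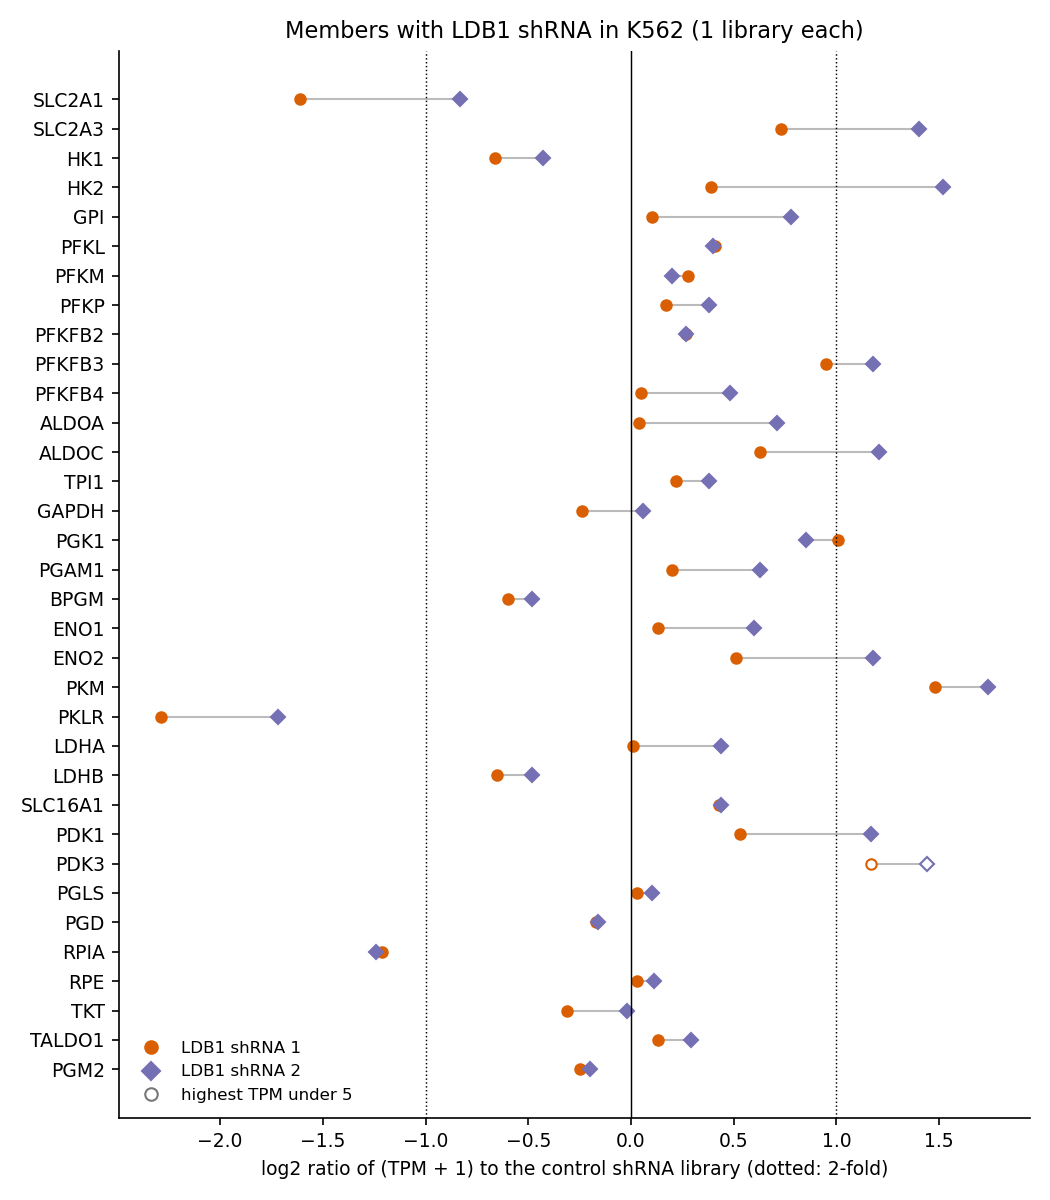
Log2 ratio of (TPM + 1) to the control shRNA library for the 34 members in the table, 1 point for each LDB1 shRNA, with dotted lines at 2-fold. PKM lies above 1 and PKLR and RPIA below -1 with both shRNAs, and PDK3 (open) has under 5 TPM.

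PKLR was the 1 member that met the rule for a lower level in all 3 sets, and its start is shown with those of 3 others that fell or rose, since these windows hold letters known from GATA factors and from E-box and HIF binding. Each run is the 250 bases before an annotated start, on the gene's own strand, from RefSeq (GRCh38.p14), and capitals mark a match on either strand. They are PKLR at chr1:155301439-155301688 (minus strand, the farther upstream of 2 starts), PFKM at chr12:48105103-48105352 (plus, the first of 7), HK2 at chr2:74834920-74835169 (plus, the second of 2) and LDHA at chr11:18394313-18394562 (plus, the first of 2).
PKLR: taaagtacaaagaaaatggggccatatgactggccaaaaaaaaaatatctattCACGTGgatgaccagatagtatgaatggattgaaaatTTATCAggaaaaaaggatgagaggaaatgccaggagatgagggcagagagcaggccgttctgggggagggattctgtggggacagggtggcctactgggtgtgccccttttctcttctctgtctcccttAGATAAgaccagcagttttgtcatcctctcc
PFKM: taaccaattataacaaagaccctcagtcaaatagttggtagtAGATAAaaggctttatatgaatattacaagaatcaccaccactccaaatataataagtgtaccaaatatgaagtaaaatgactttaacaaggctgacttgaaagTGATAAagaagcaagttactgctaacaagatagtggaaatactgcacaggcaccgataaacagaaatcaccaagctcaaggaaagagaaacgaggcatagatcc
HK2: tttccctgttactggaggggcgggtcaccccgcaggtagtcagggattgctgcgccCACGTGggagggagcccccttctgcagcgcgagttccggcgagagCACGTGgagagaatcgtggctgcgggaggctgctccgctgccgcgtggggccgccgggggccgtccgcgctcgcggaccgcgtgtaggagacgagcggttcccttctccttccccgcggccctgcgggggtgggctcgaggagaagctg
LDHA: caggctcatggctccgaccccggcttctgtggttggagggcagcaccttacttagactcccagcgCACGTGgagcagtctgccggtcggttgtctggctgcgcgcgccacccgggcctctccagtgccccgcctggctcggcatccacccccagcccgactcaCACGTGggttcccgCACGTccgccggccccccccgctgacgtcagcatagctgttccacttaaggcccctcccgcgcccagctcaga
The PKLR window holds GATA letters that begin 160 and 31 bases before the start and 1 CACGTG 197 bases before it. The PFKM window holds 2 matches to GATA letters, the HK2 window 2 CACGTG, and the LDHA window 2 CACGTG and 1 further ACGTG. These windows were picked for their matches and are not typical of the members. The other PKLR start, the other LDHA start and several PFKM starts hold none of the letters searched. Nor do the windows of SLC2A1, ENO1 and TKT, which also fell on day 4.

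Over the members, 33 matched a RefSeq promoter entry, with 62 starts, and SLC2A3, PFKFB2 and SLC16A1 did not match. AGATAA or TGATAA was found in 11.3% of the 62 windows and in 14.6% of all 35116. CCACACCC, a KLF motif, was in 4.84% and 2.97%. CACGTG, the E-box of MYC and USF proteins, was in 12.9% and 6.34%. ACGTG, the HIF core that CACGTG contains, was in 37.1% and 18.5%. Matches are descriptions of letters and not of binding. MYC itself was at 58.3 to 71.0 FPKM in control lines and 4.86 to 7.85 in degron lines on day 4, a change of -2.14 ± 0.22 (limma, adjusted p = 2.15e-05). It was already lower before dTAGv1, at 30.0 to 34.7 FPKM in degron lines against 61.9 to 73.1 (-1.02 ± 0.16, limma, adjusted p = 0.000349). KLF1 changed by -3.02 ± 0.20 on day 4 (limma, adjusted p = 7.56e-07). The part of MYC or KLF1 in the changes of the members was not tested.

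Other genes of these pathways were followed in 4 lists, read against the 8.18% of all genes that fell and the 11.6% that rose on day 4. In the list of other glycolysis and glucose uptake genes, 12 of 29 passed the filter in K562, of which 1 rose (PDK2, a pyruvate dehydrogenase kinase, 0.47 ± 0.14, adjusted p = 0.0279) and 2 fell on day 4 (GOT1 of the malate-aspartate shuttle, -0.44 ± 0.11, adjusted p = 0.0107, and GPD1L, -0.69 ± 0.18, adjusted p = 0.0121), with a median of -0.13. Of 9 tested genes of the pentose phosphate pathway and ribose phosphate use, PRPS2 (-1.39 ± 0.13, adjusted p = 1.06e-05) and PRPS1 (-0.80 ± 0.15, adjusted p = 0.00158), which make phosphoribosyl pyrophosphate for nucleotides, fell, and H6PD (0.82 ± 0.24, adjusted p = 0.0246) rose. Of 9 genes that carry pyruvate into mitochondria, PDHA1 (-0.36 ± 0.10, adjusted p = 0.0156) fell on day 4, and 5 had been lower on day 0 (6.14% of all genes). None of 10 glycogen and UDP-glucose genes was called on day 4 without the block and 1 was with it, and 4 of 7 were at least 2-fold higher with both LDB1 shRNAs (8.94% of all genes). In HEL without the replicate block, 1 gene of the first list was called against the non-targeting pool (GPD1L with siPool 1, -0.64 ± 0.14, adjusted p = 0.0248) and none of the other 3 lists.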

How the data were processed

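RNA-seq tables from 36 libraries were used as deposited. The authors deposited FPKM (K562 degron set), raw counts (HEL) and TPM (LDB1 set). Per the submitters' processing notes FastQC, STAR, featureCounts and the build hg19 were used; versions, annotation and strand setting are not given in the sources used here. FPKM were analysed as log2(FPKM + 1) in limma 3.58.1 (R 4.3.3, trend and robust) over 15348 genes (2 or more libraries at 1 FPKM or above), in 12 line-by-day groups. HEL counts were tested with the quasi-likelihood test of edgeR 4.0.16 (TMM, filterByExpr, 16688 genes). Calls used a Benjamini-Hochberg adjusted p under 0.05 over all genes tested. TPM ratios used a pseudocount of 1. Nothing says that replicates were separate cultures, so p-values measure the spread between these samples, which may be technical.

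The K562 bio rep numbers pair the samples: deviations from group means of same-numbered samples correlated above 0.1 in 66 of 66 pairs of groups (median 0.38), so blocked values stand beside results whose call they change. Of low-valued genes, 78.4% to 83.6% gave whole reads (under 6 reads, within 2%) when depth was recovered with GENCODE v29 lengths. Named members are those called on day 1 or 4, called one way in both HEL pools or counted with LDB1 shRNA, and the highest member of each step; other lists are given by counts with up to 4 called genes for each direction. The members and lists were chosen with earlier results of these data known. Alternatives were another pseudocount, filter, scaling, tool, control or line, the block, and each library left out. The fits were also run on simulated data with independent noise in each library. Such data lack the bio rep pairing and cannot check its effect on the calls. DESeq2 1.42.0 was an alternative for HEL. HCN3 and SENP1 are named because their exons overlap those of a member.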

Additional observations from a re-analysis of the deposited data

Results flagged for a closer look

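The 2 TAL1 siRNA pools differed from each other for 2 members in a direct test. PFKM was lower with siPool 2 than with siPool 1 by a log2 difference of -0.57 ± 0.09 (edgeR, Benjamini-Hochberg adjusted p = 0.00684), at 61.7 to 61.8 CPM in the 3 siPool 2 libraries and 87.1 to 98.6 CPM in the 3 siPool 1 libraries. LDHA differed by -0.72 ± 0.17 (adjusted p = 0.0459), at 468 to 756 CPM with siPool 2 and 783 to 1156 CPM with siPool 1. TAL1 itself was at 180 ± 12.5 CPM (SD, n = 3) with siPool 1 and 188 ± 5.57 CPM with siPool 2.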

How the results depend on the processing

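No called member changed direction in any alternative run. With the replicate block, members called higher and lower became 2 and 26 on day 4 (1 and 14 without it), 2 lower on day 1 (0), 2 and 4 with HEL siPool 1 (0 and 1), 1 and 7 with siPool 2 (0 and 3) and 3 and 4 between the pools (0 and 2); it ended no call on day 4, and over all genes moved day 4 from 1784 and 1256 to 3080 and 2391. HEL samples of the same replicate number correlated weakly, at 0.09 to 0.36 (median 0.12, 6 of 9 above 0.1). Between different numbers the median was -0.16. Pairing of the HEL samples thus remains possible, and the HEL calls named above come from the fit without the block. Without day 0, 6 members were called higher and 9 lower on day 1, and 3 higher and 25 lower on day 4. With lines as replicates, 1 was lower on day 1, and 2 were higher and 28 lower on day 4. Shares of all genes called are given only for the fits used in the results above and for the K562 block. Member counts under the other settings, the HEL block included, have no such share beside them. Without a filter, day 0 gave 2 and 2, siPool 1 gave 2 lower, and 4 of the 15 day 4 calls were lost, as 4 were with the LMO2 control alone, degron line 1 alone or degron line 2 alone and 3 with the parental line alone. With only the groups compared, 1 was lower between the pools. LDB1 counts were 2 higher without a TPM minimum and 5 higher at a log2 ratio of 0.58. With each library left out, counts were 1 to 2 higher (2 without degron line 1 day 0 bio rep 1 or parental day 0 bio rep 2) and 10 to 16 lower on day 4, 2 to 5 higher and 1 to 3 lower on day 0, 0 lower with siPool 1, 1 to 4 lower with siPool 2 (1 without siPool 2 bio rep 2) and 1 to 2 lower between the pools (1 without siPool 1 bio rep 1 or 2 or siPool 2 bio rep 2 or 3). The cause was not tested. Fits with 1 library left in a group assume that it varies like the other groups. TMM rescaling of FPKM moved the median of all genes on day 4 from 0.063 to 0.026 and kept all 15 calls. HEL PKLR rests on 14 to 121 reads a library, and PGM1 stayed under the filter in K562.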
